A study of Rattus norvegicus with 9 samples.

Results

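The comparison described here is that of male Wistar rats separated from their mothers in the first weeks of life (MS) with rats left undisturbed (Control), in the prefrontal cortex (PFC) of the adult. It used 6 of the 9 rats sequenced, the Control rats A1, A2 and A6 and the MS rats B3, B4 and B6, chosen by the group named in their labels. In the MS group the dams had been moved to another cage for 4 h per day from postnatal day (PND) 1 to PND 21, whereas Control litters stayed with their dams until weaning at PND 21. Males were then group housed, and the tissue, labelled as frontal cortex, came from rats labelled as 14 weeks old. Control and MS rats were given isoflurane anesthesia on the treatment days between PND 61 and PND 81. The litter of a rat, its cage and the hour at which its tissue was taken are not given in the sources used here. Each library is the whole tissue block of 1 rat, so fewer cells of a type and less RNA per cell cannot be told apart. Nothing in the labels states whether rats of a group shared a litter, so p values measure the spread between these rats.

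The PFC is a layered cortex whose pyramidal neurons project to the thalamus, the striatum and the brainstem, and it takes part in the control of the hormonal stress response. Blood vessels of the brain are lined by endothelial cells joined by tight junctions, which carry the transporters of the blood-brain barrier, and are wrapped by pericytes and smooth muscle cells. In most cells a clock built on Arntl and Clock drives the daily rise of the Per, Cry, Nr1d and Dbp genes, whose products then act back on the drivers.

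The 6 libraries held between 16106381 and 19007907 counts. Values are given in CPM, the counts of a gene scaled to a common library size after TMM normalization, in the order A1, A2 and A6 for Control rats and B3, B4 and B6 for MS rats. A log2 fold change is that of MS relative to Control rats in a quasi-likelihood model of edgeR fitted to all 9 rats. Its standard error (SE) and adjusted p come from the same model. Besides Control and MS rats, the model held the rats C3, C10 and C16, labelled MS+EA. They had been separated and were then given electroacupuncture, and they add to the estimate of the spread. The MS rat B4 stood apart from the other rats on the first principal component of the tested genes, which held 35.3% of the variance, at 45.4, with B6 at 11.7, B3 at -2.90 and the Control rats between -22.0 and -10.9. B4 was also the rat with the highest value in 21 of 22 genes of the meninges, and the cell type and pathway results that moved most with B4 are therefore also given without it.

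**Figure D1:**
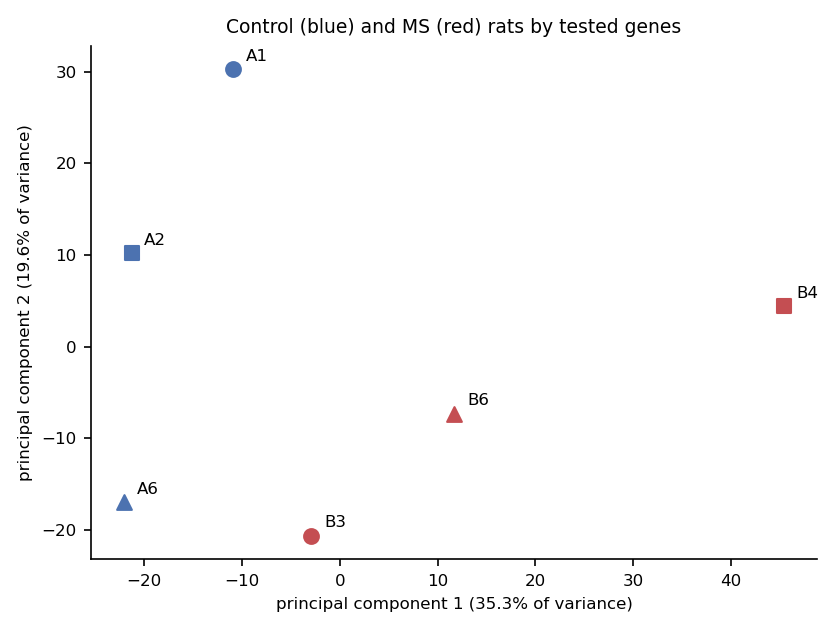
Principal components 1 and 2 (35.3% and 19.6% of the variance) of the tested genes in the 3 Control rats (blue) and the 3 MS rats (red), 1 point per rat. B4 lies at 45.4 on the first component, and the Control rats lie between -22.0 and -10.9.

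Of 16837 genes tested, 4 passed an adjusted p under 0.05 together with a fold change above 1.5, which is 0.0238%. ATP8, LOC100360791, Acsm3 and Slco1a2 are these genes. At an unadjusted p under 0.05, 1189 genes (7.06%) were higher and 598 (3.55%) lower in MS rats. In 1689 genes (10%) every MS rat lay above every Control rat, and in 1268 genes (7.53%) every MS rat lay below. With B4 left out, 817 of 17149 genes (4.76%) were higher and 414 (2.41%) lower at an unadjusted p under 0.05. The median log2 fold change of all tested genes was -0.0014, with 8375 genes on the positive and 8462 on the negative side. Functions and cell types are described below through 74 gene lists, each by the number of members at an unadjusted p under 0.05 and by its median log2 fold change, with these shares and this median as background. The lists and their members were chosen with earlier results of these data known. A list that exceeds the background is therefore a description and not independent support. Apart from the genes past both thresholds, no single gene named below passed the adjustment over all genes.

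ATP8, a mitochondrially encoded subunit of ATP synthase, had 122, 95.2 and 132 CPM in Control rats and 316, 289 and 326 CPM in MS rats. It rose by a log2 fold change of 1.41 (SE 0.126, edgeR adjusted p = 5.59e-04). LOC100360791 had 55.9, 42.9 and 47.7 CPM in Control rats and 5.31, 4.69 and 4.99 CPM in MS rats. It fell by 3.29 on the log2 scale (SE 0.140, edgeR adjusted p = 1.53e-07). The RefSeq annotation lists LOC100360791 as Tpt1l3, a relative of Tpt1, which codes for a translationally controlled tumor protein. Tpt1 itself had 215, 212 and 199 CPM in Control rats and 261, 284 and 287 CPM in MS rats, a log2 fold change of 0.41 (SE 0.0830, edgeR adjusted p = 0.108). How reads were shared out between near copies is not given in the sources used here, so the split between these 2 genes is uncertain.

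Acsm3, a mitochondrial acyl-CoA synthetase for medium-chain fatty acids, rose from 0.642, 1.46 and 0.746 CPM in Control rats to 14.5, 7.94 and 16.7 CPM in MS rats, by a log2 fold change of 3.78 (SE 0.535, edgeR adjusted p = 0.0421). Acsm5, of the same enzyme family, had 5.46, 5.06 and 3.61 CPM in Control rats and 40.7, 20.4 and 34.6 CPM in MS rats, a log2 fold change of 2.75 (SE 0.479, edgeR adjusted p = 0.0578). Pdilt, a testis protein of the disulfide isomerase family, had 0.535, 1.40 and 0.995 CPM against 8.46, 3.75 and 9.08 CPM, with an edgeR adjusted p of 0.0578. These 3 genes lie in the same neighborhood of the chromosome in RefSeq, and whether the counting used strand is not stated. In all 3 genes B4 was the lowest of the MS rats and still above every Control rat. Acsm3 lost its adjusted significance when A1, A2, A6 or B6 was left out, with edgeR adjusted p values between 0.129 and 0.18.

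Genes of the vessel wall were higher in MS rats across several lists. Among 31 tested endothelial genes, 30 had a positive log2 fold change, 10 were higher and 0 lower at an unadjusted p under 0.05, and the median was 0.25. Without B4 the median was 0.19, and 8 were higher and 0 lower at that threshold. Without A2 the median was 0.16. In the list median per rat, which is the median difference from the Control mean in log2(CPM + 0.5), B3, B4 and B6 stood at 0.25, 0.38 and 0.15, above every Control rat. In 10 of the 31 genes the lowest value was that of A6, and in 16 that of A2.

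Tek, the angiopoietin receptor that keeps vessels quiescent, had 40.2, 37.1 and 35.1 CPM in Control rats and 55.5, 60.7 and 48.3 CPM in MS rats, a log2 fold change of 0.55 (SE 0.107, edgeR adjusted p = 0.108). Kdr, the main receptor for vascular endothelial growth factor, had 27.6, 26.3 and 20.5 CPM in Control rats and 35.2, 59.8 and 41.8 CPM in MS rats, a log2 fold change of 0.88 (SE 0.193, edgeR adjusted p = 0.129) that was 0.63 without B4. Itm2a, a membrane protein enriched in brain endothelium, had 55.4, 50.9 and 46.7 CPM against 66.4, 72.05 and 65.9 CPM (edgeR adjusted p = 0.132). Cldn5, the tight junction claudin of brain vessels and the defining marker of the list, had 49.7, 44.9 and 47.9 CPM against 58.9, 60.9 and 55.4 CPM, a log2 fold change of 0.30 (SE 0.0756, edgeR adjusted p = 0.171). In each of these 4 genes the groups did not overlap. Pecam1, the second defining marker, had 18.1, 15.5 and 22.7 CPM against 26.0, 21.3 and 20.6 CPM, and its groups overlapped. Nos3, the endothelial nitric oxide synthase, had 13.3, 12.01 and 23.8 CPM against 15.2, 16.4 and 15.7 CPM and was the member with a negative log2 fold change, -0.05.

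Barrier transporters were mixed, with 8 of 30 higher, 2 lower and a median of 0.14, which was 0.073 without A2. Slco1a2, which carries organic anions, bile acids and steroid conjugates, rose from 74.1, 65.8 and 63.5 CPM to 103, 123 and 97.0 CPM, by a log2 fold change of 0.67 (SE 0.0928, edgeR adjusted p = 0.0421). Its adjusted p was 0.0798 without A1, 0.224 without A2, 0.172 without A6 and 0.0778 without B4 (edgeR). Slc16a1, the carrier of lactate and ketone bodies, had 38.2, 31.8 and 29.9 CPM against 49.6, 49.5 and 52.9 CPM, a log2 fold change of 0.60 (SE 0.105, edgeR adjusted p = 0.0578). Abcb1a, the drug efflux pump P-glycoprotein, had 61.5, 52.7 and 53.5 CPM against 72.9, 76.1 and 65.1 CPM (log2 fold change 0.35, edgeR adjusted p = 0.164). Lepr, the leptin receptor, had 6.48, 5.85 and 5.91 CPM against 8.22, 27.4 and 13.2 CPM, a log2 fold change of 1.41 that was 0.81 without B4 (edgeR adjusted p = 0.164 with all rats). Abcg2, another efflux pump of the barrier, was lower. It had 18.4, 17.9 and 19.9 CPM in Control rats and 8.81, 12.8 and 6.55 CPM in MS rats, a log2 fold change of -0.995 (edgeR adjusted p = 0.241). Slc2a1, the glucose carrier of the barrier, had 141, 130 and 241 CPM against 159, 143 and 131 CPM, with A6 above all other rats and the groups overlapping.

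In the wall around the endothelium, all 18 tested genes of pericytes and smooth muscle had a positive log2 fold change, with 10 higher and 0 lower at an unadjusted p under 0.05 and a median of 0.48. Without B4 the median was 0.36, and 6 were higher and 0 lower. Myh11, Acta2 and Tbx18 had log2 fold changes above the list median, with all rats and without B4. Myh11, the smooth muscle myosin heavy chain, had 21.2, 20.2 and 19.3 CPM against 28.9, 79.7 and 29.6 CPM, a log2 fold change of 1.18 (SE 0.308, edgeR adjusted p = 0.178) that was 0.53 without B4. Acta2, smooth muscle actin, had 9.47, 8.90 and 8.02 CPM against 13.1, 44.2 and 12.1 CPM, a log2 fold change of 1.39 that was 0.52 without B4 (edgeR adjusted p = 0.209 with all rats). Tbx18, a transcription factor of mural cells, had 2.30, 3.05 and 2.86 CPM against 4.199, 14.9 and 5.89 CPM (log2 fold change 1.60, and 0.88 without B4). In these 3 genes B3 and B6 also lay above every Control rat. The defining pericyte markers differed less. Rgs5, a regulator of G protein signaling, had 35.5, 36.2 and 40.4 CPM against 47.2, 39.8 and 40.6 CPM, a log2 fold change of 0.19 (edgeR adjusted p = 0.535). Pdgfrb, the receptor by which pericytes are recruited, had 2.25, 1.77 and 1.99 CPM against 3.44, 3.25 and 1.98 CPM, and its groups overlapped.

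Genes of the meningeal fibroblasts, the connective tissue cells of the brain's covering, moved with B4. Their median log2 fold change was 1.95 with all rats and 0.65 without B4, and the number higher at an unadjusted p under 0.05 was 19 of 22 with all rats and 7 without B4, with 0 lower in both. The summed level of the list lay between 99.9 and 119 CPM in Control rats and was 139, 904 and 222 CPM in B3, B4 and B6. Igf2, a growth factor made by the meninges, had 16.2, 12.9 and 15.3 CPM in Control rats and 25.5, 226 and 48.5 CPM in MS rats, a log2 fold change of 2.75 (edgeR adjusted p = 0.164) that was 1.32 without B4. Col3a1, a fibrillar collagen, had 8.62, 9.27 and 13.0 CPM against 15.05, 97.5 and 29.9 CPM (log2 fold change 2.21, and 1.13 without B4). Dcn, the proteoglycan decorin and a defining marker of these cells, had 14.7, 9.02 and 7.15 CPM against 7.11, 23.3 and 6.79 CPM, so that B3 and B6 lay just below the lowest Control rat. Collagens and matrix genes, some of which are in the list above, had a median of 0.30 with 16 of 45 members higher and 0 lower, against 0.13 with 4 of 48 higher and 1 lower without B4. Col4a5, a chain of the vessel basement membrane, had 11.8, 10.2 and 10.3 CPM against 16.7, 28.3 and 17.0 CPM (log2 fold change 0.94, edgeR adjusted p = 0.164). The part of the meningeal genes in the values of the vessel lists was not tested beyond the values given without B4.

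Blood cell genes were higher too, but in the list medians per rat this held for B4 and B6 and not for B3. For red blood cells B3, B4 and B6 stood at 0.18, 0.68 and 0.82, with A1 at 0.23. For leukocytes they stood at -0.17, 1.35 and 0.54, with B3 below every Control rat. Hba2, an alpha globin, had 59.8, 26.8 and 33.9 CPM in Control rats and 66.2, 86.3 and 77.5 CPM in MS rats, a log2 fold change of 0.93 (edgeR adjusted p = 0.186). Hbb, a beta globin, had 26.4, 14.2 and 23.6 CPM against 30.4, 46.3 and 41.0 CPM. Alas2, the first enzyme of heme synthesis in red cells, had 2.14, 1.46 and 2.61 CPM against 4.32, 5.69 and 4.33 CPM (log2 fold change 1.20, edgeR adjusted p = 0.211). Over 11 tested genes of red blood cells the median was 0.79, and 0.68 without B4, with 5 higher in either case and 0 lower with all rats against 1 without B4. The median was 0.34 without A2, the rat with the lowest Hba2, Hbb and Alas2 values. Reads of near-identical globin copies may have been shared between them. Of 24 leukocyte genes named, 6 were tested, with a median of 0.77 and 3 higher, against 0.23 and 0 without B4. In the other fits with all 6 rats the leukocyte median went as low as 0.37. Ptprc, the pan-leukocyte antigen CD45, which microglia also carry, had 6.74, 6.28 and 7.52 CPM against 7.99, 11.0 and 10.2 CPM. The defining lymphocyte genes Cd3d, Cd79a and Ms4a1 were at or near 0 in all 6 rats. The part of blood left in the vessels in the endothelial values was not tested.

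**Figure D2:**
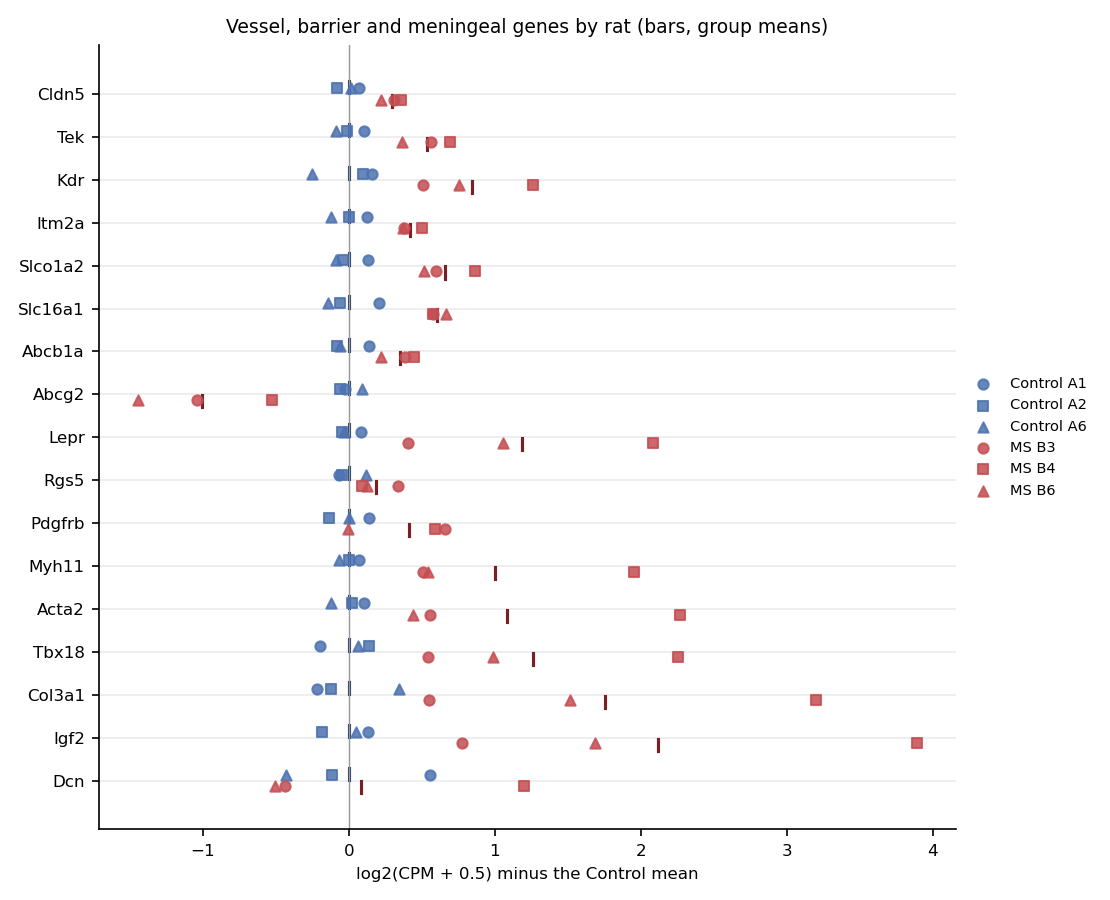
Expression of 17 genes of endothelium, barrier transport, mural cells and meninges in each rat, as log2(CPM + 0.5) minus the mean of the Control rats, with bars at the group means. For Cldn5, Tek, Itm2a and Slc16a1 the 3 MS rats lie together above the Control rats, for Abcg2 they lie below, and for Myh11, Acta2, Col3a1 and Igf2 B4 lies far beyond B3 and B6.

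The output genes of the circadian clock were lower in MS rats. Among 14 tested genes listed as clock output, 13 had a negative log2 fold change, and the median was -0.32. At an unadjusted p under 0.05, 10 were lower and 1 was higher. The hour at which each member peaks was not measured here, and the list does not hold members of a single phase only. The median was -0.33 without B4, with 8 lower and 1 higher. Without the Control rat A6 the median was -0.22, with 5 lower and 0 higher, and A6 held the highest value of 11 of the 14 genes. The summed level of the list was 1206, 1218 and 1478 CPM in Control rats and 1078, 1033 and 1066 CPM in MS rats.

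Dbp, a transcription factor that binds D-boxes, had 97.6, 83.4 and 110 CPM in Control rats and 62.9, 60.0 and 60.8 CPM in MS rats, a log2 fold change of -0.66 (SE 0.115, edgeR adjusted p = 0.0578). Nr1d1, the nuclear receptor REV-ERB alpha that represses Arntl, had 91.7, 80.8 and 84.8 CPM against 61.3, 61.04 and 63.4 CPM, a log2 fold change of -0.47 (SE 0.0911, edgeR adjusted p = 0.108). Per3, a period gene, had 52.4, 57.6 and 66.2 CPM against 44.0, 39.3 and 39.7 CPM, a log2 fold change of -0.52 (SE 0.107, edgeR adjusted p = 0.110). The 3 MS rats lay close together in these genes, and each was below every Control rat. Ciart, a repressor of the Clock and Arntl pair, had 7.92, 9.82 and 14.5 CPM against 5.77, 4.57 and 5.47 CPM, a log2 fold change of -1.02 (SE 0.250, edgeR adjusted p = 0.158). Per2, another period gene, had 63.5, 75.4 and 103 CPM against 55.0, 58.4 and 59.5 CPM, a log2 fold change of -0.48 (edgeR adjusted p = 0.291). Cry2, a cryptochrome that closes the feedback loop, had 149, 152 and 168 CPM against 137, 139 and 137 CPM. Bhlhe41, a repressor that binds E-boxes, had 54.2, 45.2 and 50.9 CPM against 38.5, 43.3 and 39.8 CPM. Per1, which glucocorticoids also induce, had 80.2, 101 and 170 CPM against 92.5, 73.0 and 85.6 CPM, and its groups overlapped with A6 far above the rest. Nfil3, whose product opposes Dbp at the D-box, was the member with a positive log2 fold change (0.53), at 5.62, 8.90 and 7.09 CPM against 11.1, 9.88 and 10.2 CPM.

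Genes listed with Arntl were split, with 6 of 10 tested on the positive and 4 on the negative side of the log2 fold change. At an unadjusted p under 0.05, 4 were higher and 0 lower, and the median was 0.09 (0.051 without A6). Arntl, the driver also known as Bmal1, had 47.6, 42.7 and 37.7 CPM against 53.4, 56.1 and 57.5 CPM, a log2 fold change of 0.38 (SE 0.125, edgeR adjusted p = 0.279). Clock, its partner, had 156, 162 and 157 CPM against 183, 201 and 205 CPM, a log2 fold change of 0.31 (SE 0.0724, edgeR adjusted p = 0.146). Rora, a nuclear receptor that activates Arntl, had 142, 144 and 143 CPM against 154, 171 and 174 CPM (log2 fold change 0.22, edgeR adjusted p = 0.252). In each of these 3 genes the groups did not overlap. Npas2, a relative of Clock, had 156, 168 and 167 CPM against 153, 152 and 151 CPM, with a log2 fold change of -0.11. In Npas2 every MS rat lay below every Control rat.

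**Figure D3:**
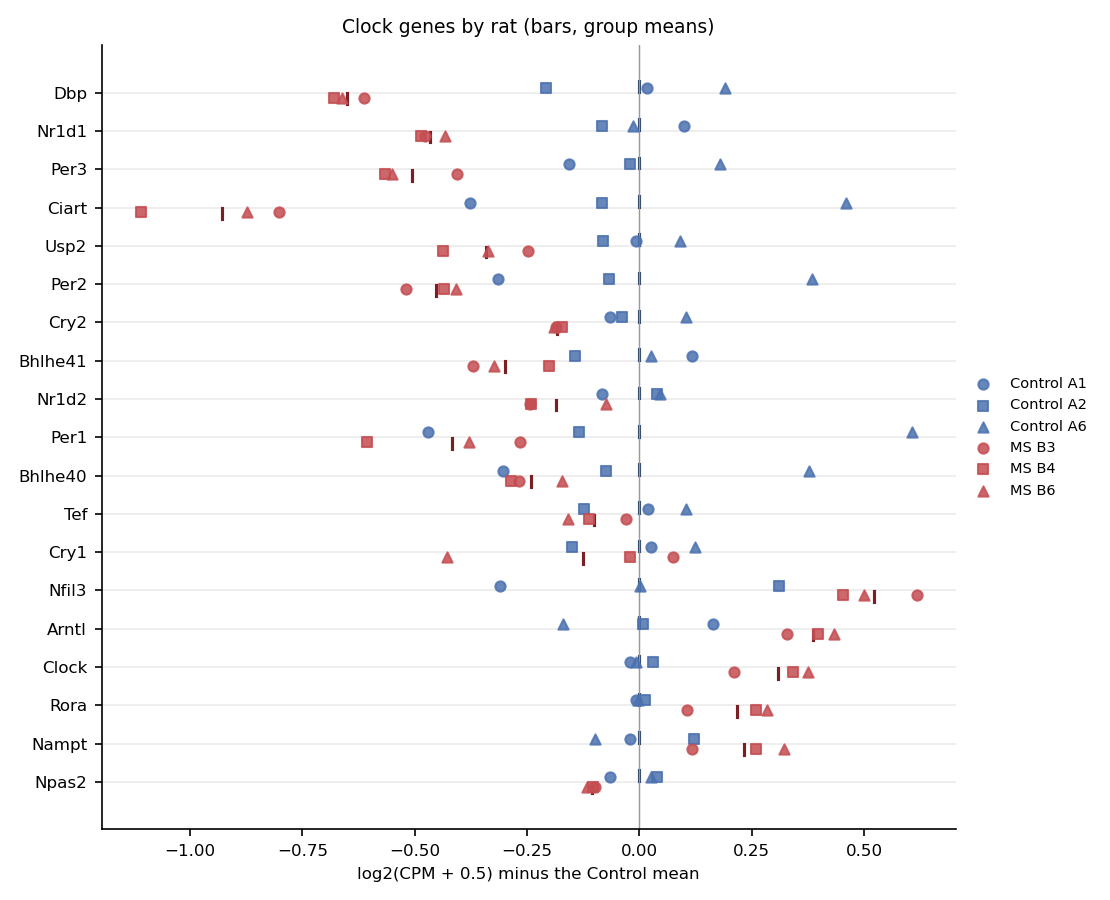
Expression of 19 clock genes in each rat, as log2(CPM + 0.5) minus the mean of the Control rats, with bars at the group means. The MS rats lie below the Control rats from Dbp to Bhlhe41 and above them for Nfil3, Arntl, Clock and Rora, and the Control rat A6 is the highest rat for Per1, Per2 and Ciart.

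The promoters of the clock output genes are shown because the E-box, read by the Clock and Arntl pair, and the D-box, read by Dbp, are the elements after which these genes are grouped. RefSeq promoter windows of the GRCr8 build, from 250 bases before to 50 bases after the start, were found for 13 of the 14 tested genes, and Cry1 was missing. The E-box was searched as CACGTG, which reads alike on both strands, and the D-box as TTATGTAA or TTACGTAA on both strands. An E-box stood in 4 of 13 windows (30.8%), those of Ciart, Bhlhe40, Bhlhe41 and Tef, against 953 of 10573 windows of tested genes (9.01%) and 1826 of 27457 of all windows (6.65%). A D-box stood in 1 of 13, that of Per2, against 63 of 10573 (0.596%). Because the list was grouped after these elements, shares above the background follow from its choice and say nothing about these rats. Elements outside the windows or with other letters were not searched. In the sequences below, written 5′ to 3′ on the strand of the gene, capitals mark these letters. Ciart lies at chr2:186112197-186112496 on the minus strand, and its 3 E-boxes begin 93, 35 and 21 bases before the start. Bhlhe41 lies at chr4:180569306-180569605 on the minus strand, with 1 E-box that begins 48 bases before the start. Per2 lies at chr9:99496944-99497243 on the minus strand, with the D-box 192 bases before the start.
Ciart: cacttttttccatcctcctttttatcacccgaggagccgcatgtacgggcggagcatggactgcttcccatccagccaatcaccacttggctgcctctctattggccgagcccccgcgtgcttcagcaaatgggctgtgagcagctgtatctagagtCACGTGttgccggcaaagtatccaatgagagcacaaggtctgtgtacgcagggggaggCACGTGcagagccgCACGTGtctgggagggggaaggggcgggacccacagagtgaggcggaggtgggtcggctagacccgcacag
Bhlhe41: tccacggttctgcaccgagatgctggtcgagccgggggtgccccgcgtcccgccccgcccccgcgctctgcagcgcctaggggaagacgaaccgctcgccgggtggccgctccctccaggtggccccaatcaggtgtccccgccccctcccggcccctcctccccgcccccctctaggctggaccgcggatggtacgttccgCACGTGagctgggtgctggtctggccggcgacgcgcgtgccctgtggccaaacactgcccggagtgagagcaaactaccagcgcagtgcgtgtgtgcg
Per2: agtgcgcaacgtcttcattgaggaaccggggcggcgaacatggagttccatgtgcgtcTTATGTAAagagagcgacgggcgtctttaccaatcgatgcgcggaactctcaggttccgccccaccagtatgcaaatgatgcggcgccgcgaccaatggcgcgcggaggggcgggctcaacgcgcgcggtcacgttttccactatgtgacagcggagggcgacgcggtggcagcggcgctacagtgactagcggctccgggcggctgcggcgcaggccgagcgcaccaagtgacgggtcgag
Of these genes, Ciart had the most negative log2 fold change of the list (-1.02), and Bhlhe40 and Tef, whose windows also hold an E-box, had log2 fold changes of -0.27 and -0.10 with overlapping groups.

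The mitochondrially encoded genes were higher in MS rats, and the nuclear genes of the same complexes were not. All 13 mitochondrial genes had a positive log2 fold change, 6 were higher and 0 lower at an unadjusted p under 0.05, and the median was 0.21 (0.22 without B4 and 0.15 without B3). B3 held the highest value in 9 of the 13 genes. They took 3.08%, 3.05% and 3.14% of the counts in Control rats and 3.80%, 3.26% and 3.31% in MS rats. These shares did not overlap, and an exact two-sided permutation test gave p = 0.1, the smallest that 3 rats against 3 allow (0.35 adjusted over 7 shares of counts). The difference between the group means was 0.367 percentage points with all rats, 0.195 without B3 and 0.465 without B4. ATP6, the ATP synthase subunit whose reading frame overlaps that of ATP8, had 807, 752 and 814 CPM against 1291, 1048 and 1178 CPM, a log2 fold change of 0.57 (SE 0.0921, edgeR adjusted p = 0.0578). ND6, a complex I subunit coded on the other strand, had 462, 538 and 602 CPM against 692, 646 and 840 CPM, a log2 fold change of 0.44 (SE 0.119, edgeR adjusted p = 0.186). ND4, another complex I subunit, had 133, 148 and 132 CPM against 189, 217 and 201 CPM (log2 fold change 0.56, edgeR adjusted p = 0.273). COX1, the catalytic subunit of cytochrome oxidase, had 18910, 17490 and 18760 CPM against 22550, 19500 and 19700 CPM, a log2 fold change of 0.16 (edgeR adjusted p = 0.495). ND1 had 2237, 2238 and 2149 CPM against 2562, 1963 and 2265 CPM, with B4 below every Control rat. ATP8, ATP6 and ND4 had the largest log2 fold changes of the 13 genes. Their reading frames overlap those of neighbors, and how reads over such overlaps were counted is not given in the sources used here.

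**Figure D4:**
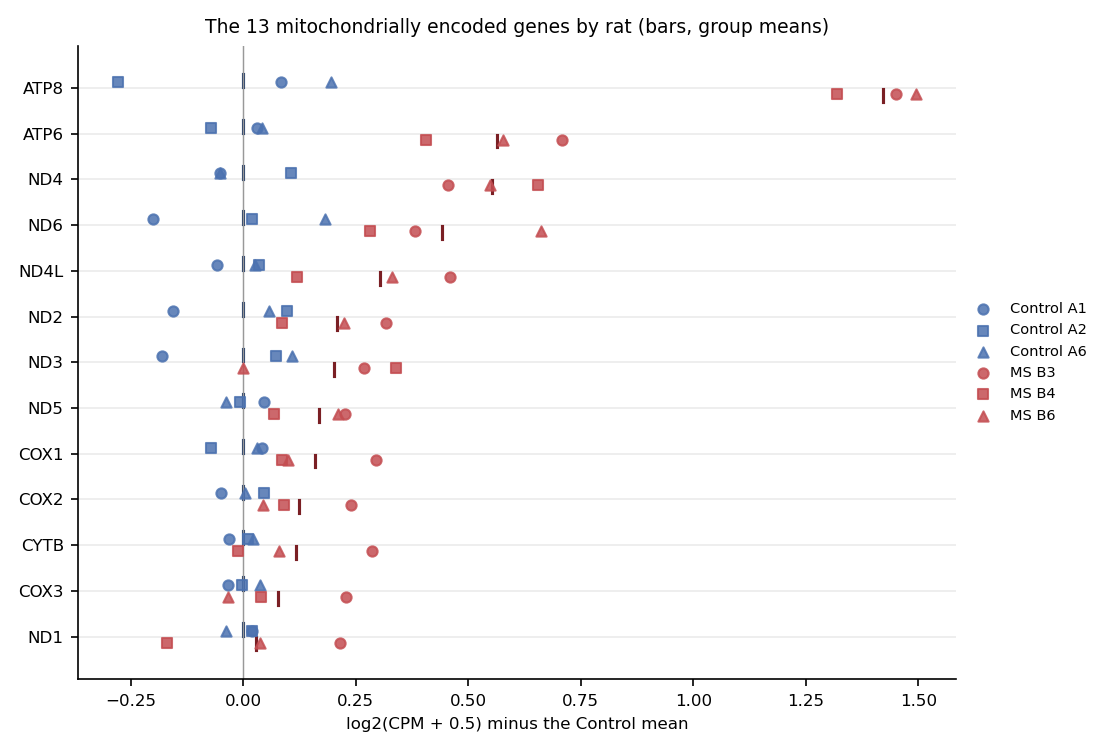
Expression of the 13 mitochondrially encoded genes in each rat, as log2(CPM + 0.5) minus the mean of the Control rats, with bars at the group means. ATP8 has the widest gap between the groups (log2 fold change 1.41), and the groups overlap at 6 of the 13 genes, ND1 and COX3 among them.

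Among nuclear genes of respiratory complex I, 2 of 37 were higher and 2 lower, with a median of -0.04, and of complexes II to V 1 of 46 was higher and 0 lower, with a median of -0.03. Cycs, the electron carrier cytochrome c, was the higher one, at 29.0, 33.1 and 29.8 CPM against 41.0, 41.3 and 38.0 CPM (log2 fold change 0.39, edgeR adjusted p = 0.146). Micu3, a brain regulator of the calcium uniporter of mitochondria, had 74.4, 86.3 and 83.8 CPM against 119, 124 and 131 CPM, a log2 fold change of 0.61 (SE 0.0956, edgeR adjusted p = 0.0578). Micu2, its relative, had 59.2, 57.9 and 57.8 CPM against 66.4, 69.1 and 67.7 CPM. In both genes the groups did not overlap. Ucp3, an uncoupling protein of the inner membrane, had 0.107, 0.244 and 0 CPM against 2.51, 1.38 and 1.38 CPM (edgeR adjusted p = 0.0766), and its Control rats had at most 4 reads each. Acsl4, which activates long polyunsaturated fatty acids, had 171, 191 and 179 CPM against 211, 230 and 263 CPM (log2 fold change 0.38, edgeR adjusted p = 0.215). Glycolytic genes had a median of -0.05, with Pkm, the pyruvate kinase, at 1333, 1324 and 1220 CPM against 1154, 1104 and 1128 CPM.

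Ribosomal protein genes of the cytoplasm were lower by a small amount. Of 75 tested, 59 had a negative log2 fold change. In 18 every MS rat lay below every Control rat and in 0 above, beside 7.53% and 10% of all genes tested. At an unadjusted p under 0.05, 4 were lower and 0 higher, and the lower ones are close to the 3.55% of all genes. The median was -0.08, and it lay between -0.09 and -0.07 in the fits that left out 1 rat each. Their share of the counts was 0.470%, 0.479% and 0.456% in Control rats and 0.444%, 0.440% and 0.428% in MS rats (exact two-sided permutation p = 0.1, and 0.35 adjusted over 7 shares). Rpl30, of the large subunit, had 36.3, 30.7 and 34.6 CPM against 30.4, 29.5 and 26.1 CPM. Rps27a, which codes for ubiquitin fused to a small subunit protein, had 51.0, 82.3 and 51.0 CPM against 19.1, 18.4 and 45.5 CPM, a log2 fold change of -1.15 (SE 0.424, edgeR adjusted p = 0.344). Many ribosomal protein genes have processed copies in the genome, so their counts may include or lose shared reads. Rn45s, the precursor of ribosomal RNA, had 606, 555 and 769 CPM against 398, 337 and 490 CPM (log2 fold change -0.66, edgeR adjusted p = 0.108), in libraries from which ribosomal RNA had been depleted. The 7 genes typed as rRNA, Rn45s among them, were not lower as a class. Together they took 0.118%, 0.0918% and 0.124% of the counts in Control rats and 0.101%, 0.108% and 0.149% in MS rats. The group means were 0.111% and 0.119%, and the shares overlapped (exact two-sided permutation p = 0.8). No gene of the 70 mitochondrial ribosomal proteins or of the 46 proteasome subunits had an unadjusted p under 0.05 in edgeR.

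Translation factors were mixed, with 8 of 69 higher, 3 lower and a median of -0.05 (-0.03 without B4 and -0.02 without A2). Eif2s3y, a Y-linked subunit of initiation factor 2, had 31.8, 28.7 and 30.7 CPM against 37.7, 41.6 and 44.6 CPM (log2 fold change 0.44, edgeR adjusted p = 0.116). Eef1e1, a scaffold of the aminoacyl-tRNA synthetases, had 22.7, 16.1 and 19.0 CPM against 26.9, 33.1 and 35.1 CPM (log2 fold change 0.72, edgeR adjusted p = 0.132). In the machinery that brings new proteins into the endoplasmic reticulum (ER), 8 of 37 genes were higher and 0 lower, with a median of 0.04 that lay between 0.0027 and 0.11 in the fits that left out 1 rat each. Spcs3, a subunit of the signal peptidase, had 26.0, 27.0 and 29.0 CPM against 38.0, 41.8 and 47.7 CPM, a log2 fold change of 0.64 (SE 0.128, edgeR adjusted p = 0.108). Ssr1, of the translocon-associated complex, had 83.0, 104 and 97.4 CPM against 118, 135 and 138 CPM, a log2 fold change of 0.46 (SE 0.101, edgeR adjusted p = 0.129). Sec62, of the translocation channel, had 122, 130 and 124 CPM against 139, 157 and 164 CPM. In each of these 3 genes B3 was the lowest of the MS rats and still above every Control rat. Over the whole list B3 was not above them. Its list median was -0.028, against 0.011, 0.039 and -0.045 in A1, A2 and A6 and 0.12 and 0.15 in B4 and B6. B3 held the lowest value in 10 of the 37 genes. Hspa5, the main ER chaperone, had 190, 200 and 198 CPM against 216, 251 and 250 CPM (log2 fold change 0.28, edgeR adjusted p = 0.186). In the list of the unfolded protein response, to which Hspa5 belongs, 1 of 33 genes was higher and 1 lower. Rab GTPases, which direct vesicle traffic, had 7 of 51 genes higher and 0 lower, among them Rab6a of the Golgi at 631, 609 and 575 CPM against 669, 776 and 762 CPM.

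**Figure D5:**
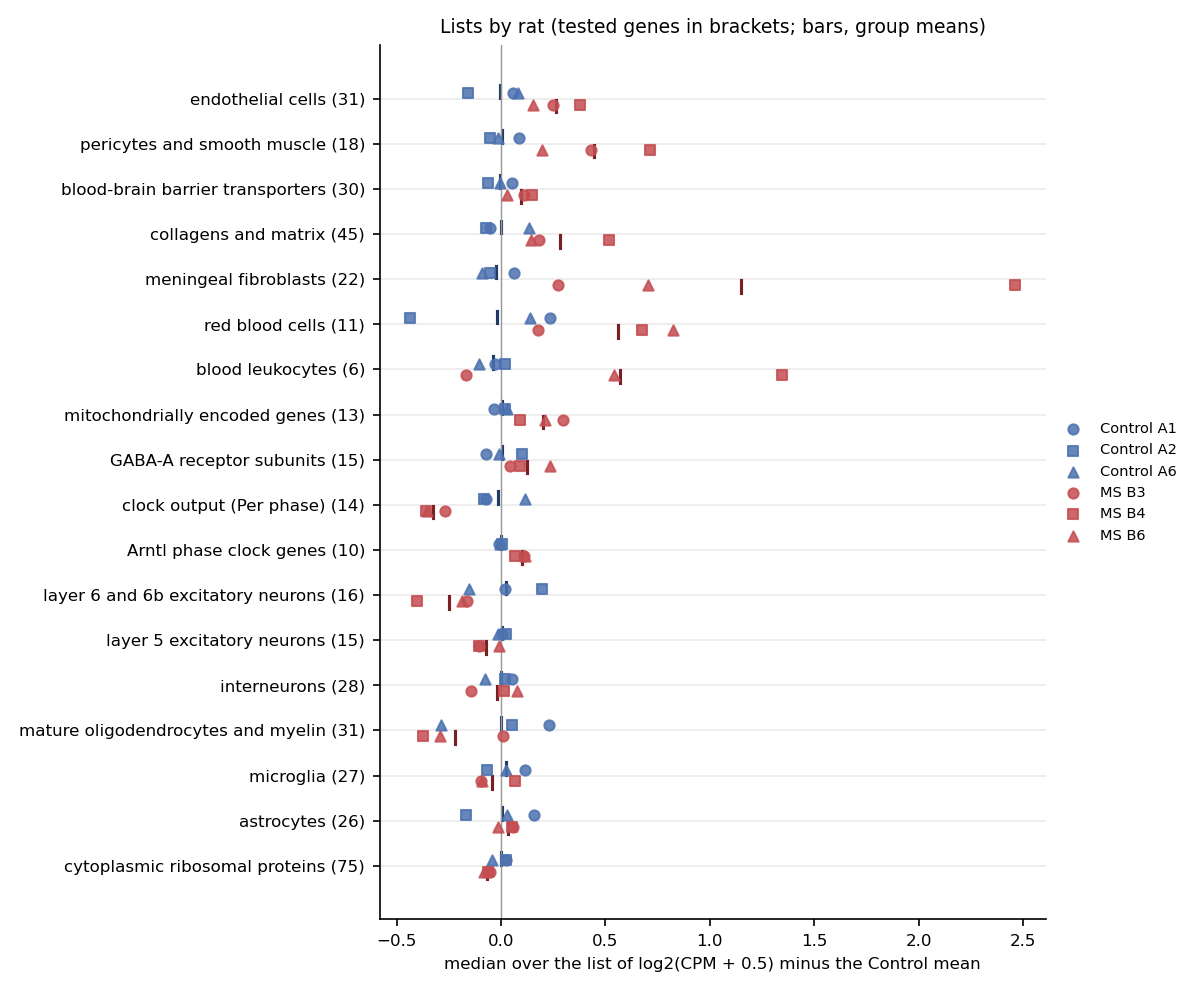
Median over each of 18 gene lists of log2(CPM + 0.5) minus the mean of the Control rats, 1 point per rat, with bars at the group means and the number of tested genes in brackets. B4 lies at 2.46 for the meningeal fibroblasts, the 3 MS rats lie together below the Control rats for the clock output, and for oligodendrocytes, microglia, astrocytes and interneurons the groups overlap.

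The tissue held the layer markers of cortex in every rat, such as Cux2 of the upper layers at between 178 and 233 CPM and Bcl11b of layer 5 at between 66.7 and 88.3 CPM. Markers of the deep layers were lower in part. In layers 6 and 6b, 12 of 16 tested genes had a negative log2 fold change, 5 were lower and 1 was higher, and the median was -0.36, which was -0.16 without B4 with 6 of 17 lower and 0 higher, and -0.17 without A2. Cplx3, a complexin of layer 6b neurons, had 6.85, 7.87 and 5.72 CPM against 4.26, 3.94 and 4.69 CPM (log2 fold change -0.66, edgeR adjusted p = 0.186). Syt6, a synaptotagmin, had 8.14, 9.09 and 8.58 CPM against 6.88, 4.57 and 4.51 CPM (log2 fold change -0.69, edgeR adjusted p = 0.220). The defining markers Foxp2 and Tle4 did not follow them. Foxp2 had 11.9, 19.8 and 14.0 CPM against 17.1, 10.3 and 16.3 CPM, and Tle4 had a log2 fold change of -0.05.

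In layer 5, 4 of 15 genes were lower and 1 higher, with a median of -0.11 and of 0.01 without B4. Crym, a thyroid hormone binding protein listed under both layers, had 110, 128 and 128 CPM against 84.8, 99.8 and 98.5 CPM (log2 fold change -0.37, edgeR adjusted p = 0.302). Deptor, an inhibitor of mTOR, had 77.4, 75.4 and 74.4 CPM against 89.2, 88.6 and 91.6 CPM (log2 fold change 0.25, edgeR adjusted p = 0.206). In layers 2 to 4, 1 of 14 genes was higher and 2 lower, with a median of 0.02. Wfs1, an ER membrane protein of upper-layer neurons, had 212, 193 and 200 CPM against 137, 186 and 170 CPM, with a log2 fold change of -0.30. Interneuron genes had a median of -0.03, with 1 of 28 higher and 1 lower. Gad1, which makes GABA, had 229, 233 and 225 CPM against 211, 257 and 293 CPM, and its groups overlapped. Ndnf, the higher one, had 8.94, 8.23 and 6.96 CPM against 6.94, 38.7 and 15.5 CPM, with B4 again the highest. B3 lay just below every Control rat, so the groups overlapped. The log2 fold change of Ndnf was 1.33, and 0.47 without B4. Reln, made by the interneurons of layer 1, was the lower one, at 15.8, 18.4 and 15.4 CPM against 11.7, 14.6 and 14.4 CPM.

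Subunits of the GABA-A receptor, the chloride channel of fast inhibition, were higher in part. Of 15 tested, 5 were higher and 0 lower, with a median of 0.12 (0.10 without B4, with 6 higher and 0 lower). In the list median per rat the groups overlapped. A1, A2 and A6 stood at -0.074, 0.101 and -0.012, and B3, B4 and B6 at 0.041, 0.092 and 0.233. A2 held the highest value in 5 of the 15 genes. Gabrb2, a beta subunit, had 401, 430 and 390 CPM against 499, 512 and 558 CPM, a log2 fold change of 0.36 (SE 0.102, edgeR adjusted p = 0.196). Its groups did not overlap. Gabra5 and Gabrd, subunits of receptors outside synapses, had log2 fold changes of 0.02 and 0.04.

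Among 28 ionotropic glutamate receptor genes, 3 were higher and 2 lower, with a median of -0.04. Gria2, the AMPA subunit that limits calcium entry, had 323, 330 and 347 CPM against 400, 447 and 499 CPM, a log2 fold change of 0.43 (SE 0.107, edgeR adjusted p = 0.164). Grik3, a kainate receptor subunit, had 208, 261 and 236 CPM against 177, 140 and 194 CPM, a log2 fold change of -0.46 (SE 0.112, edgeR adjusted p = 0.152). In both genes the groups did not overlap, and they went opposite ways. Homer1, a scaffold of the postsynaptic density, had 316, 345 and 396 CPM against 402, 469 and 501 CPM (log2 fold change 0.38, edgeR adjusted p = 0.219). No metabotropic glutamate receptor (8 genes) and no serotonin, dopamine or adrenergic receptor or related gene (23 genes) had an unadjusted p under 0.05 in edgeR. Chrm1, the main muscarinic receptor of cortex, had 179, 164 and 171 CPM against 146, 137 and 149 CPM (log2 fold change -0.25, edgeR adjusted p = 0.176). Chrnb3, a nicotinic subunit of midbrain and thalamic neurons, was at or under 3 reads in each Control rat and had 15, 170 and 25 reads in B3, B4 and B6. Cacnb4, a subunit of voltage-gated calcium channels, had 370, 386 and 423 CPM against 497, 526 and 545 CPM, a log2 fold change of 0.41 (SE 0.0813, edgeR adjusted p = 0.108). Potassium channels were split, with 5 of 78 higher and 6 lower. Kcnh7 had 404, 367 and 380 CPM against 487, 475 and 488 CPM, and Kcnn3, a calcium-activated channel, had 10.9, 11.2 and 7.46 CPM against 5.598, 7.32 and 4.99 CPM. Genes of synaptic vesicle release had 4 of 58 higher and 4 lower.

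Cadherins and protocadherins, which hold cells together at synapses and elsewhere, had 8 of 81 genes higher and 1 lower, with a median of 0.05 that was 0.015 without B4 and 0.015 without A1. Pcdh7 had 150, 134 and 154 CPM against 251, 278 and 314 CPM, a log2 fold change of 0.95 (SE 0.161, edgeR adjusted p = 0.0578). Celsr1, a cadherin of planar cell polarity, had 44.6, 37.6 and 46.3 CPM against 27.8, 32.0 and 32.0 CPM and was the lower one (log2 fold change -0.48, edgeR adjusted p = 0.110). Axon guidance genes had 2 of 66 higher and 3 lower, with Slit1 at 269, 272 and 283 CPM against 224, 212 and 237 CPM.

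Glial genes differed little. Myelin genes had a median of -0.22, and 28 of 31 had a negative log2 fold change, but 1 passed an unadjusted p under 0.05. Mbp, the myelin basic protein, had 1439, 1187 and 954 CPM against 1389, 761 and 918 CPM, and its groups overlapped. The Control rat A1 held the highest value in 20 of the 31 genes and the MS rat B4 the lowest in 14, and the median lay between -0.39 and -0.07 in the fits that left out 1 rat each. Gpr17, a receptor of oligodendrocytes that have begun to differentiate, was the gene past that threshold, at 58.0, 47.0 and 44.4 CPM against 40.2, 41.7 and 40.5 CPM. Precursor genes had a median of -0.02. Astrocyte genes had a median of 0.01, with 1 of 26 higher, and Aqp4, the water channel of their endfeet, had 623, 545 and 535 CPM against 547, 640 and 656 CPM. Microglial genes had a median of -0.10, and 22 of 27 had a negative log2 fold change, although 0 were lower and 1 was higher at an unadjusted p under 0.05. Cx3cr1, the fractalkine receptor of microglia, had 77.3, 70.2 and 65.2 CPM against 60.9, 63.8 and 64.0 CPM.

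Immune genes that were higher were often highest in B4. Complement genes had 5 of 21 higher and a median of 0.14, against 2 of 22 higher, 2 lower and a median of -0.08 without B4. C7, of the membrane attack complex, had 2.89, 2.62 and 2.55 CPM against 5.19, 32.6 and 3.73 CPM. Cytokine and NF-kB genes had 6 of 27 higher and 0 lower, and 3 higher without B4. Tnfaip3, an inhibitor of NF-kB, had 11.8, 17.9 and 16.8 CPM against 23.4, 21.5 and 20.4 CPM, with B4 inside the range of the other MS rats (log2 fold change 0.49, edgeR adjusted p = 0.293). Interferon response genes had 1 of 31 higher, and the median was 0.18 with all rats and 0.03 without B4.

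Of the genes of the stress axis, 1 of 16 was higher and 1 lower. Nr3c1, the glucocorticoid receptor, had 147, 147 and 127 CPM against 168, 177 and 181 CPM, a log2 fold change of 0.32 (SE 0.0706, edgeR adjusted p = 0.129) that was 0.31 without B4. Oxtr, the oxytocin receptor, had 1.61, 1.34 and 0.933 CPM against 0.467, 0.250 and 0.601 CPM, a log2 fold change of -1.54 (SE 0.435, edgeR adjusted p = 0.197), at few reads. In both genes the groups did not overlap. Nr3c2, the mineralocorticoid receptor, had 54.1, 51.5 and 49.5 CPM against 56.2, 55.7 and 54.8 CPM. Crh, the peptide that starts the hormonal stress response, had 3.27, 3.72 and 2.55 CPM against 1.11, 2.69 and 2.04 CPM, with overlapping groups.

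Genes that glucocorticoids induce had a median of -0.22, with 24 of 33 on the negative side and 3 higher and 3 lower at an unadjusted p under 0.05. This rested on A6, which held the highest value in 24 of the 33 genes. Without A6 the median was 0.03, with 5 higher and 1 lower. Sgk1, a kinase induced by these hormones, had 68.4, 83.1 and 142 CPM against 88.5, 75.6 and 68.1 CPM. Tsc22d3, which codes for GILZ, had 43.5, 48.7 and 80.7 CPM against 52.6, 50.2 and 41.9 CPM. Fkbp5, a chaperone that damps the receptor, had 31.7, 29.6 and 41.4 CPM against 36.8, 38.0 and 35.0 CPM. In each of these genes the groups overlapped. The clock output genes share A6 as their highest rat, and the part of A6 in their values is given above as the list without it.

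Immediate early genes, which respond within minutes to neuronal activity, had a median of -0.17, with 4 of 40 lower and 1 higher. The highest value was that of A6 in 18 and of A2 in 15 of the 40 genes, and the median was -0.06 without A6 and -0.0086 without A2. Junb had 48.2, 75.0 and 69.6 CPM against 37.3, 48.3 and 45.2 CPM (log2 fold change -0.56, edgeR adjusted p = 0.190), with overlapping groups. Gadd45g, a growth arrest gene listed here and among the glucocorticoid targets, had 5.89, 7.68 and 6.65 CPM against 3.85, 4.13 and 3.25 CPM, a log2 fold change of -0.85 (edgeR adjusted p = 0.224). Igf1, a growth factor of neurons and vessels, had 13.0, 13.0 and 13.5 CPM against 18.1, 23.5 and 20.0 CPM, a log2 fold change of 0.64 (SE 0.124, edgeR adjusted p = 0.108) that was 0.53 without B4. Thra, the main thyroid hormone receptor of brain, had 397, 364 and 358 CPM against 328, 328 and 342 CPM (log2 fold change -0.16, edgeR adjusted p = 0.374).

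In the nucleus, zinc finger genes of the Zfp series had 27 of 237 higher and 3 lower, and their median was 0.02. Zfp758 had 3.05, 2.32 and 2.36 CPM against 5.95, 5.13 and 5.35 CPM, a log2 fold change of 1.08 (SE 0.186, edgeR adjusted p = 0.0578). Core splicing proteins had 6 of 61 higher and 0 lower, with a median of -0.01. Srsf1, which sets the choice of splice sites, had 107, 113 and 116 CPM against 138, 166 and 176 CPM, a log2 fold change of 0.51 (SE 0.0994, edgeR adjusted p = 0.108). Other splicing regulators of neurons were mixed, with 9 of 55 higher and 5 lower. Ubiquitin ligase genes of the cullin family and its adaptors had 10 of 102 higher and 3 lower. Cul3 had 134, 144 and 133 CPM against 170, 194 and 202 CPM (log2 fold change 0.46, edgeR adjusted p = 0.129). Histone genes had 1 of 34 higher and 4 lower, with a median of -0.18 that was -0.28 without B4 and -0.08 without B6. Hist2h4 had 47.6, 39.2 and 41.8 CPM against 32.0, 34.0 and 29.3 CPM (log2 fold change -0.43, edgeR adjusted p = 0.159), and histone genes have near copies that share reads. Among writers and erasers of DNA methylation and histone acetylation, 1 of 34 was higher and 2 lower, with Hdac5 at 158, 133 and 134 CPM against 127, 116 and 114 CPM. Maf, a transcription factor of microglia and interneurons, had 28.6, 26.0 and 23.4 CPM against 36.0, 50.7 and 38.2 CPM (log2 fold change 0.68, edgeR adjusted p = 0.0850).

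Further genes with a fold change above 1.5 and groups that did not overlap were mostly uncharacterized or sparsely read. LOC103691124, typed as lncRNA, had 24.2, 27.1 and 27.0 CPM against 38.7, 45.3 and 44.4 CPM. LOC103691838 had 2.41, 2.87 and 3.17 CPM against 6.82, 7.13 and 5.65 CPM, and LOC102550291 had 8.35, 9.15 and 8.64 CPM against 14.6, 13.3 and 14.4 CPM, each with an edgeR adjusted p of 0.0578. On the lower side, Slc5a11, a sodium-coupled inositol carrier, had 6.96, 6.95 and 7.09 CPM against 4.72, 4.13 and 3.55 CPM (log2 fold change -0.76, edgeR adjusted p = 0.186). Pex11a, which controls the number of peroxisomes, had 11.6, 11.8 and 14.7 CPM against 5.71, 9.57 and 8.48 CPM (log2 fold change -0.68, edgeR adjusted p = 0.206). LOC100359701 had 5.19, 4.39 and 4.23 CPM against 1.63, 1.06 and 2.10 CPM (log2 fold change -1.52, edgeR adjusted p = 0.108).

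Peptide genes of the hypothalamus were read mainly in B4. Avp, vasopressin, had 1.55, 0.183 and 0.187 CPM in Control rats and 1.57, 31.5 and 0.902 CPM in MS rats, and Oxt, oxytocin, had 1.34, 0.122 and 0.249 CPM against 0.816, 16.1 and 0.241 CPM. Among markers of subcortical neurons, 6 of 21 tested genes were higher and 1 lower, with a median of 0.22, against 2 of 22 higher, 1 lower and a median of 0.04 without B4. These 21 are the part of 37 genes that passed the count filter, which a gene nearly silent in Control rats can pass through the other rats. Such genes lean to the higher side in advance. In the other fits with all 6 rats the median went as low as 0.016. Ttr, made by the choroid plexus, had 1.12, 1.95 and 1.55 CPM against 0.700, 9.13 and 2.22 CPM. The choroid list, with 11 of 18 genes tested, had a median of 0.55 with all rats and of -0.05 without B4. In the other fits with all 6 rats its median went as low as -0.10. The part of the tissue block taken from B4 in these values was not tested.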

How the data were processed

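Total RNA of the PFC, depleted of rRNA, had been sequenced on an Illumina HiSeq instrument. The authors checked read quality by FastQC and aligned reads to the rat assembly Rnor_6.0 (HISAT2 2.0.4). They deposited whole-number read counts per gene without normalization. The counting program, its strand setting and its use of reads with several locations are not given in the sources used here. Each column was assigned to its rat by its name, 0 columns were not used, and the 6 libraries of 37209 genes held between 16106381 and 19007907 counts.

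Counts of all 9 rats were fitted in edgeR 4.0.16 (R 4.3.3) after TMM normalization and filterByExpr with a minimum count of 10, by the quasi-likelihood F test, with Benjamini-Hochberg adjustment over the 16837 genes left. A gene was called where the adjusted p was below 0.05 and the fold change exceeded 1.5. The SE was derived from F, as the size of the log2 value over its root. Rats, not reads, set the error, with a common biological coefficient of variation of 12.7%. A single share was compared by an exact two-sided permutation test. The members and the lists were chosen with earlier results of these data known. Genes named are those past both thresholds, in each direction the 15 with the smallest p with a fold change above 1.5, groups that do not overlap and a mean of at least 1 CPM, up to 4 members per list with the smallest unadjusted p under 0.05 or else the 2 most abundant, the first 2 markers of each cell type list, and genes at 3 or fewer reads in each rat of a group and at 10 or more in each rat of the other, with list members that stood apart in 1 rat. Some genes that meet this rule are not reported here. Further list members, such as Abcg2, Per1, Per2, Cry2, Bhlhe40, Bhlhe41, Nfil3, Npas2, Tef, Sgk1, Tsc22d3, Fkbp5, Nr3c2, Crh, Nos3, Slc2a1, Gabra5, Gabrd, COX1, COX3, Cry1 and ND1, were chosen after their values were seen. The 74 lists were described by counts and medians without a set test. The alternatives were DESeq2 1.42.0, limma-trend (limma 3.58.1), bias-adjusted deviances, RLE or total counts, other count filters, the 6 rats alone, no fold change threshold and each rat left out. The procedures were tested on simulated data. Promoter windows came from RefSeq (GRCr8), the sequences of which were not used for coordinates of the counts. Python 3.11.15 with pandas 2.3.3, numpy 2.4.6, scipy 1.17.1 and matplotlib 3.10.9 served for lists and plots.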

Additional observations from a re-analysis of the deposited data

How the results depend on the processing

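The number of genes past both thresholds (4, of which 3 higher and 1 lower) changed with several settings. It was 207 (185 higher and 22 lower) with all genes of at least 1 count, 70 (63 and 7) with DESeq2 and 11 (9 and 2) with the 6 rats alone. With each rat left out it lay between 2 and 22, between 1 and 19 for higher and between 1 and 3 for lower genes, with 2 without A1 or A2 and 22 without B3. It was between 3 and 5 under limma-trend, bias-adjusted deviances, RLE, total counts, the filter of 10 counts in every rat and no fold change threshold. The cause of these differences was not tested. With each rat left out, the genes whose groups did not overlap numbered between 2369 and 2963 for higher and between 2004 and 2461 for lower, since fewer rats have to be apart. The genes at an unadjusted p under 0.05 lay between 817 and 1393 for higher and between 414 and 693 for lower. No named gene turned its direction while called. Of the 74 lists, 42 had a median of the same sign in all 14 alternatives and 32 changed sign in at least 1, the largest of the latter being the choroid list with a median of 0.55. With each rat left out, the difference in the share of counts lay between 0.195 and 0.465 percentage points for the mitochondrially encoded genes and between -0.0374 and -0.0258 for the cytoplasmic ribosomal proteins, and it changed sign for mRNA, lncRNA, ncRNA and rRNA. No paired analysis was possible because the Control and MS rats share only 1 number (A6 and B6) and nothing in the labels ties rats of the same number. With 3 rats against 3, differences below about the spread between rats were not detectable.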
